A study of Rattus norvegicus with 12 samples.

Results

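Cultured rat heart muscle cells that had been stretched with a control siRNA (stretched control, 3 libraries) were compared directly with cells that had received an siRNA against Wnt5a and were not stretched (unstretched Wnt5a siRNA, 3 libraries). These are 6 of the 12 RNA sequencing libraries of the study, and they were taken by their treatment label alone. The other 6 libraries, 3 of cells with control siRNA and no stretch (unstretched control) and 3 of stretched cells with Wnt5a siRNA (stretched Wnt5a siRNA), served as reference levels. All 12 came from ventricular cardiomyocytes of newborn Wistar rats, and every culture had received an siRNA. The 2 groups differ in both factors at once, so a difference between them is the sum of the difference between stretched and unstretched control and the difference between unstretched control and unstretched Wnt5a siRNA. The labels used here do not give the length and strength of the stretch, the siRNA sequences and doses, or whether numbered replicates were separate cultures. P-values thus weigh a difference between groups only against the spread of numbered libraries within groups, and that spread may be technical.

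Wnt5a is a secreted Wnt ligand that signals mainly without beta-catenin, through Ror2, Ryk and Frizzled receptors, to the cytoskeleton and calcium. YAP is a transcriptional co-activator restrained by the Hippo kinases. When it enters the nucleus it binds TEAD factors and switches on genes such as Ctgf, Cyr61 and Ankrd1. Mechanical load on cardiomyocytes is classically read out by the natriuretic peptide genes Nppa and Nppb, by skeletal actin Acta1 and by a shift between the myosin heavy chains Myh6 and Myh7. The series title names the Wnt5a and YAP axis in this response. The comparison asks what separates cells under load from cells given Wnt5a siRNA and no load.

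Levels are the authors' FPKM, fragment counts scaled to transcript length and by a factor for each library. Differences are of log2(FPKM + 1), stretched control minus unstretched Wnt5a siRNA, with their standard error, and adjusted p-values are from limma fitted to all 12 libraries. A gene is called when its adjusted p is under 0.05, and only called genes are said to be higher or lower. The log2 scale with 1 added understates the change of genes at low FPKM. Of 17312 gene symbols, 10518 passed the filter of at least 1 FPKM in at least 3 libraries. Summed FPKM was 676014 to 709021 in the stretched control libraries and 575161 to 607276 in the unstretched Wnt5a siRNA libraries. Stretched control 3 stood apart from its own group. The SD across genes of its log2 differences was 0.393 to stretched control 1 and 0.426 to stretched control 2, against 0.277 between those 2 and 0.205 to 0.288 within the other 3 groups. The main counts and many of the genes and lists are given with and without it, but not every one.

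The cells carried the cardiomyocyte label at the level of RNA. The summed FPKM of 11 tested cardiomyocyte markers was 29140 to 42830 in the stretched control libraries, with replicate 3 lowest, and 20210 to 23900 in the unstretched Wnt5a siRNA libraries. Of these 11 markers, 2 (Actc1 and Tnnc1) were called higher and none lower, against 22.7% and 22.3% of all genes. The median log2 difference of the 11 was 0.15. Without stretched control 3, 6 of them were higher. With every library set to the same sum, 2 were higher and 2 lower. A large part of the sums was Actc1, with group means of 16840 and 6556 FPKM. Markers of other cells were also present. The summed FPKM of 15 fibroblast markers was 5999 to 9977, with replicate 3 highest, against 6198 to 6425. It was 10190 to 10760 in the stretched Wnt5a siRNA libraries. Bulk RNA cannot tell fewer cells of a type from less of its RNA per cell.

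The target of the siRNA did not separate the 2 groups. Wnt5a was at 6.52, 5.66 and 8.22 FPKM in the stretched control libraries and at 6.15, 4.60 and 6.81 FPKM in the unstretched Wnt5a siRNA libraries. The ranges overlapped, and the difference did not pass the test (0.19 ± 0.14, 95% interval −0.12 to 0.49, adjusted p = 0.289; 0.06 without stretched control 3). It was called only after quantile normalization (0.35), and its adjusted p ran from 0.0491 to 0.948 over all alternatives. Both groups were below the unstretched control, in which Wnt5a was at 10.4 to 12.3 FPKM. The mean was 59.5% of that level in the stretched control and 51.2% in the unstretched Wnt5a siRNA libraries. Yap1 itself was at 57.3 to 65.3 FPKM in the stretched control and at 59.4 to 63.9 FPKM in the unstretched Wnt5a siRNA libraries. Its difference was 0.00 ± 0.07 with a 95% interval of −0.14 to 0.15, and it turned to −0.23 when every library was set to the same sum (TPM scaling). Its adjusted p was 0.0104 there and up to 1 under the other alternatives.

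Among the ligands and receptors around Wnt5a, 20 were tested, of which 2 were higher and 4 lower, with a median log2 difference of −0.04. Of all genes tested, 22.7% were called higher and 22.3% lower. The counts of the list became 6 higher and 3 lower without stretched control 3 and 2 and 11 with TPM scaling. Wnt4, another Wnt ligand, was lower in the stretched control libraries, at 0.255, 0.343 and 0.376 FPKM against 1.97, 1.10 and 2.39 FPKM (−1.06 ± 0.18, limma adjusted p = 0.0007). Outside the unstretched Wnt5a siRNA libraries it reached 1 FPKM only in stretched Wnt5a siRNA 3 (1.02 FPKM). It thus passed the filter mainly through the group where it was high, at levels near the floor, which limits the weight of its adjusted p. Ror1, a receptor tyrosine kinase for Wnt ligands, was higher, at 12.2 to 18.5 FPKM against 8.17 to 8.76 FPKM (0.74 ± 0.15, adjusted p = 0.0023). Among the planar cell polarity genes, Prickle1 was higher by 0.44 and Vangl2 lower by a difference of −0.64. In the genes around beta-catenin, 5 of 13 were higher and 2 lower, and 4 and 6 with TPM scaling. With that scaling 8.59% of all genes were called higher and 41.0% lower. The cyclin gene Ccnd1 was at 128, 129 and 146 FPKM against 51.9, 54.1 and 47.8 FPKM, a difference of 1.37 ± 0.12. Nkd1, a feedback inhibitor of Wnt signaling, was lower by a difference of −1.28 ± 0.13 (0.629 to 0.848 against 3.02 to 3.41 FPKM).

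Of 19 natriuretic and fetal genes tested, 8 were higher and 3 lower, against 22.7% and 22.3% of all genes. Without stretched control 3 the counts were 12 and 3, against 27.9% and 26.2%. The natriuretic peptides parted. Nppb, which encodes BNP, was at 3990, 3603 and 2564 FPKM in the stretched control libraries and at 1074, 1519 and 560 FPKM in the unstretched Wnt5a siRNA libraries. Every stretched control library was above every unstretched Wnt5a siRNA library, as the groups were apart in either direction for 50.0% of all genes, and the difference was 1.78 ± 0.39 (limma adjusted p = 0.0032; 1.97 without stretched control 3). Nppa, which encodes ANP, was at 7829, 5749 and 10950 FPKM against 5693, 9162 and 3415 FPKM. Its ranges overlapped widely (0.49 ± 0.35, 95% interval −0.27 to 1.25, adjusted p = 0.266). The reference levels differed between the 2 peptides. The unstretched Wnt5a siRNA mean was 407% of the unstretched control mean for Nppa and 151% for Nppb, whereas the stretched control mean was 547% and 485% of it.

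Sarcomeric genes of load were divided too. Acta1, skeletal actin, was at 1387, 1235 and 238 FPKM in the stretched control libraries against 196, 255 and 150 FPKM. Stretched control 3 lay inside the unstretched Wnt5a siRNA range. The difference was 1.92 ± 0.54 (limma adjusted p = 0.0129), and it was 2.74 without stretched control 3 (adjusted p = 4.3e-05), 1.47 without stretched control 1 (0.0596) and 1.55 without stretched control 2 (0.0534). Those 3 adjusted p-values include the lowest and highest over all alternatives. Myh6, the fast myosin heavy chain of the adult rodent ventricle, was at 1823, 2242 and 798 FPKM against 1405, 1410 and 1506 FPKM. It was not called with all libraries (0.04 ± 0.28, 95% interval −0.56 to 0.65, adjusted p = 0.912) and was called higher without stretched control 3 (0.49, adjusted p = 0.0057). Its sign turned without stretched control 1 (−0.11) or 2 (−0.25), with TPM scaling (−0.19) and with quantile normalization (−0.18), and its adjusted p ran from 0.00525 to 0.96 over all alternatives. Myh7, the slow fetal myosin heavy chain, was lower in the stretched control libraries, at 1008, 1014 and 1072 FPKM against 1729, 1966 and 1446 FPKM (−0.72 ± 0.13, limma adjusted p = 0.0011). In both groups the mean of Myh7 was above the unstretched control, at 137% of it with stretch and 228% with Wnt5a siRNA.

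Of the 3 YAP targets used as readouts, Ankrd1 and Ctgf were higher and Cyr61 was not called. Ankrd1, a titin-associated stress protein, was at 5818, 6289 and 3965 FPKM against 2752, 3184 and 1883 FPKM, a difference of 1.05 ± 0.22 (limma adjusted p = 0.0027). Ctgf, a matricellular growth factor, was at 2133, 1807 and 1293 FPKM against 1023, 1224 and 807 FPKM (0.77 ± 0.22, limma adjusted p = 0.0144). Their stretched control libraries all lay above the unstretched Wnt5a siRNA libraries. Ctgf was 0.61 without stretched control 1 and without unstretched Wnt5a siRNA 3 and 0.53 with quantile normalization, where it was not called, with adjusted p-values from 0.00072 to 0.0662 over all alternatives. Cyr61, a close relative of Ctgf, was at 278, 231 and 185 FPKM against 194, 234 and 162 FPKM and was not called (0.23 ± 0.18, 95% interval −0.16 to 0.62, adjusted p = 0.309). Over the whole list of YAP and TAZ targets, 6 of 19 were higher and 4 lower, with a median of 0.17. The counts were 9 and 5 without stretched control 3 and 4 and 6 with TPM scaling. Of all genes, 22.7% were higher and 22.3% lower. These shares were 27.9% and 26.2% without stretched control 3 and 8.59% and 41.0% with TPM scaling. Tgfb2 was higher by 1.20 ± 0.21, and the stress gene Gadd45a by 1.05 ± 0.14. The phosphatase gene Ptpn14 (−0.93 ± 0.16) and tissue factor F3 (−0.71 ± 0.15) were lower. Of the Hippo kinases, TEAD factors and their partners, 3 of 19 were higher (15.8%) and 5 lower (26.3%), near the shares of all genes. The counts were 6 and 6 without stretched control 3 and 0 and 8 with TPM scaling. Tead1 (−0.34 ± 0.09) and Tead2 (−0.70 ± 0.09) were among the lower. Single genes of 3 against 3 libraries cannot go below an exact 2-sided permutation p of 0.1, which Nppb, Myh7, Ankrd1 and Ctgf reached. The values were 0.5 for Wnt5a, 0.4 for Nppa, 0.2 for Acta1, 0.5 for Cyr61 and 1.0 for Myh6 and Yap1.

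**Figure D1:**
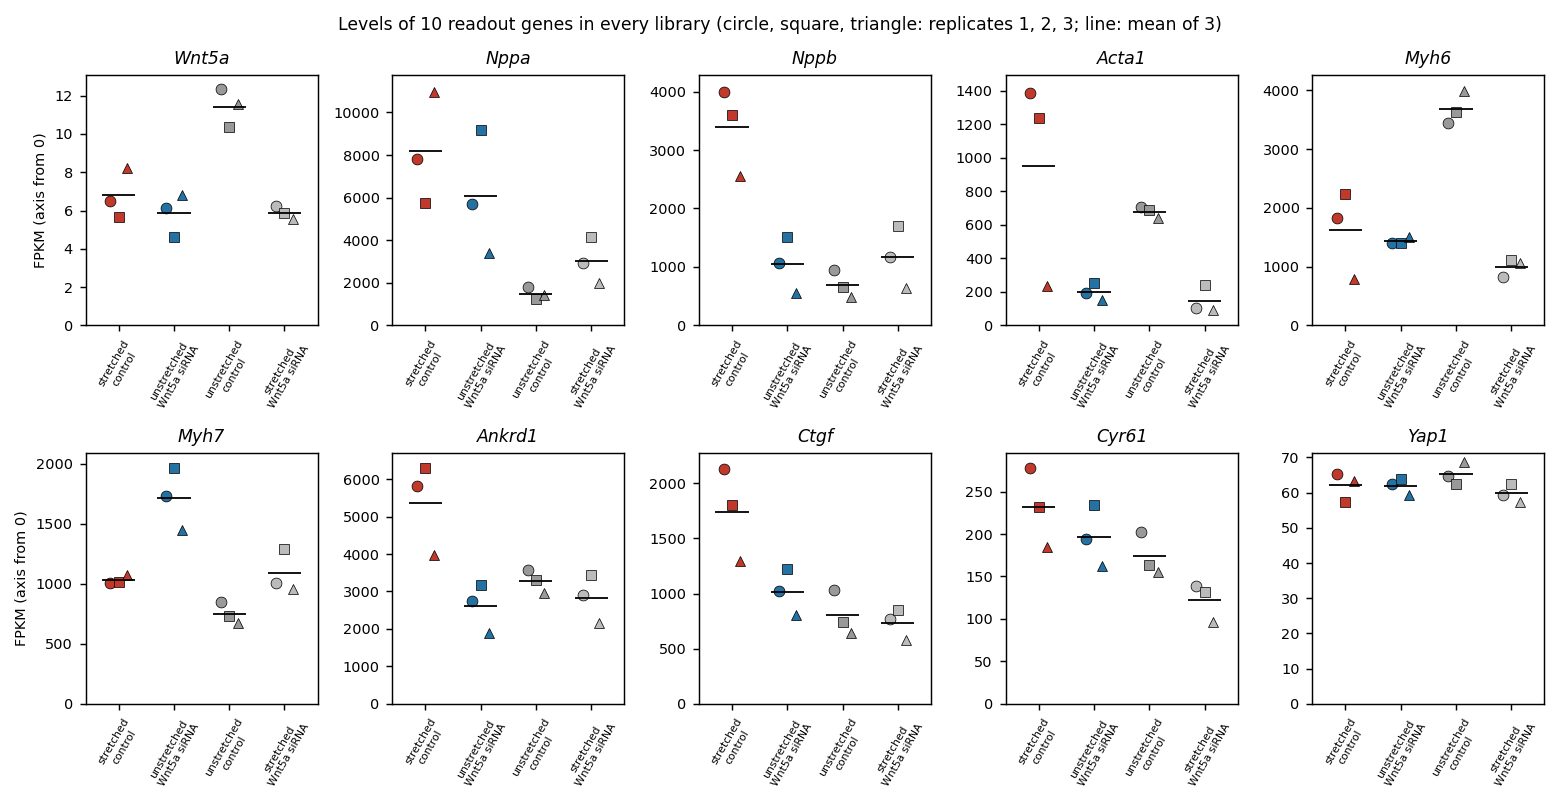
FPKM of 10 readout genes in each library (vertical axis from 0) by group, with circle, square and triangle for replicates 1, 2 and 3 and a line for the mean of 3. Wnt5a and Yap1 overlapped between stretched control (red) and unstretched Wnt5a siRNA (blue), Nppb and Ankrd1 did not, and the triangle of stretched control lay among the blue points for Acta1 and below them for Myh6.

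The promoters of 4 genes that were higher in the stretched control libraries are shown because they carry letters that the factors above are known to read. The sequences are RefSeq's for the assembly GRCr8, the 250 bases before the annotated start, 5′ to 3′ on the gene's strand. Capitals mark GGAATG or its reverse complement CATTCC (the core of the TEAD motif), the CArG box of serum response factor, and the endoplasmic reticulum stress element (CCAAT and CCACG with 9 bases of any kind between them), each searched on both strands.
Ctgf (Ccn2), chr1:22624615-22624864, minus strand: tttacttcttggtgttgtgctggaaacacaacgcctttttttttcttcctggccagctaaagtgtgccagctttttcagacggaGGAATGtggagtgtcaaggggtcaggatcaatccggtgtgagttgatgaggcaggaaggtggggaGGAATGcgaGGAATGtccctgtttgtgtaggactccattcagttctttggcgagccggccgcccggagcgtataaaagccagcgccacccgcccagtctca
Nppb, chr5:163699758-163700007, plus strand: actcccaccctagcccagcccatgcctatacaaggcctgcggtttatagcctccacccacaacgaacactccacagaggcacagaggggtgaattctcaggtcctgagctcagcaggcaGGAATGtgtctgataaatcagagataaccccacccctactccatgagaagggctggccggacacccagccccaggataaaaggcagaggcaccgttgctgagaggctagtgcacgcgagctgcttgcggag
Acta1, chr19:68784195-68784444, minus strand: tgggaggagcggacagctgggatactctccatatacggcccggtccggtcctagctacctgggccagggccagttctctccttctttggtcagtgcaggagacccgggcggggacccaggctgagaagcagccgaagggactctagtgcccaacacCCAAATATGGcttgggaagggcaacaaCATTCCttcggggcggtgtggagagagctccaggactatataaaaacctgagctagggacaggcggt
Hspa5, chr3:38452766-38453015, plus strand: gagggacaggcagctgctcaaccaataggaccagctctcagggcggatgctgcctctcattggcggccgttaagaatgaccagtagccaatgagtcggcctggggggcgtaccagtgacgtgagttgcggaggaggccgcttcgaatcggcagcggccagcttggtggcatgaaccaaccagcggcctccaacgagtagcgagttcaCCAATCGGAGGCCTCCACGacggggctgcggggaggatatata

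The Ctgf promoter held GGAATG 3 times, and those of Nppb and Acta1 once each, in Acta1 on the opposite strand. That of Acta1 also held 1 CArG box, and that of Hspa5, the endoplasmic reticulum chaperone BiP, held 1 stress element. GGAATG stood in 11.8% of 27457 promoters of the same length and in 10.1% of the 8540 of tested genes. It stood in 13.7% of the 117 promoters of genes called at least 2-fold higher and in 11.5% of the 148 of genes called at least 2-fold lower. A CArG box stood in 1.14% of the promoters of tested genes, 3.42% of those at least 2-fold higher and 2.03% of those at least 2-fold lower. The last 2 shares are 4 and 3 promoters, and Acta1, shown above, is 1 of the 4. The stress element stood in 0.187%, 1.71% and 0% of the same 3 sets, which is 16, 2 and 0 promoters. Hspa5, shown above because it carries the element, is 1 of the 2. Counts this small do not show an enrichment. For comparison, GATAA, a core of GATA factor motifs, stood in 14.3%, 14.5% and 12.2%. AAGGTCA, the site of estrogen-related receptors, stood in 2.28%, 2.56% and 4.05%. These are counts of letters in a window and say nothing of binding.

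Across the transcriptome, 4740 of 10518 genes (45.1%) were called, 2392 higher (22.7%) and 2348 lower (22.3%) in the stretched control libraries. A difference of at least 2-fold was less common, with 174 called genes higher (1.65%) and 212 lower (2.02%). Without stretched control 3, 5675 of 10492 genes were called (54.1%), 2925 higher and 2750 lower. Of the genes called with it, 4417 were called in the same direction without it, 323 were not, and none changed direction. The split between higher and lower depended on the scaling. Median ratio scaling, which matches libraries by their median gene ratio, had factors of 1.0001 to 1.0061, so the FPKM were already near balance by that measure. It gave 2462 higher and 2311 lower genes. With every library set to the same sum, 939 genes (8.59% of 10926) were higher and 4478 (41.0%) lower, and the median difference over all genes moved from 0.00 to −0.22.

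The 12 largest rises by the naming rule included several genes of peptide and cytokine signaling. Ramp3, which pairs with the calcitonin receptor-like receptor to make an adrenomedullin receptor, was at 25.6, 21.3 and 10.9 FPKM against 2.25, 1.94 and 2.34 FPKM. The means differed by 8.86-fold, and the log2 difference was 2.60 ± 0.24 (adjusted p = 2e-05). Bdkrb2, the bradykinin B2 receptor, was at 31.4, 17.6 and 21.7 FPKM against 4.26, 4.69 and 2.34 FPKM (2.36 ± 0.31). Il1rl1, the receptor of interleukin-33 known to respond to strain in cardiomyocytes, was at 158, 162 and 115 FPKM against 32.7, 32.9 and 29.5 FPKM (2.14 ± 0.20). Its stretched Wnt5a siRNA mean, 71.6 FPKM, lay between these groups. Ptgs2, the inducible cyclooxygenase, was at 14.5, 13.9 and 12.3 FPKM against 3.25, 2.65 and 3.38 FPKM (1.84 ± 0.18). Tac3, a tachykinin precursor, was at 10.3 to 12.9 FPKM against 2.43 to 2.77 FPKM (1.83 ± 0.23), while the unstretched control mean was 9.44 FPKM.

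The other rises were of matrix, keratin and regulatory genes. Tnc, the matrix protein tenascin C, was at 178, 142 and 242 FPKM against 43.3, 47.2 and 37.0 FPKM (2.09 ± 0.18). Fbln1, fibulin 1, was at 13.2 to 23.7 FPKM against 4.21 to 5.29 FPKM (1.85 ± 0.24). Fgl2, a prothrombinase of the fibrinogen family, was higher by 2.15 ± 0.22, and Noct, a deadenylase-like protein with a daily rhythm, by 1.89 ± 0.29. The inhibitor of DNA binding genes Id1 and Id4, targets of BMP signaling, were higher by 1.97 ± 0.21 and 1.80 ± 0.22. Krt18, a simple epithelial keratin, was at 69.9, 74.8 and 15.9 FPKM against 13.9, 10 and 11.6 FPKM (1.82 ± 0.43). Stretched control 3 was near the unstretched Wnt5a siRNA range for Krt18, and the difference was 2.53 without it.

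Of the 12 largest falls, Car3 and Myl4 were higher in unstretched Wnt5a siRNA than in unstretched control libraries. Car3, a cytosolic carbonic anhydrase of muscle and fat, was at 1.5, 3.47 and 4.86 FPKM in the stretched control libraries against 29.1, 15 and 32.6 FPKM (−2.65 ± 0.31, adjusted p = 7.4e-05). The unstretched control mean of Car3 was 3.18 FPKM, so the stretched control was near that level. Myl4, the atrial and fetal essential myosin light chain, was at 53.1, 54.1 and 40.8 FPKM against 239, 225 and 231 FPKM (−2.22 ± 0.12, adjusted p = 8.5e-07). Its unstretched control mean was 59.5 FPKM, and its difference between unstretched control and unstretched Wnt5a siRNA was −1.94. Neither was called between stretched and unstretched control (−0.04 for Car3 and −0.28 for Myl4).

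Among the other falls, only Smim5 was called between unstretched control and unstretched Wnt5a siRNA. Unlike Car3 and Myl4 it was lower with the siRNA, with means of 18.1 FPKM in unstretched control and 7.89 FPKM in unstretched Wnt5a siRNA. Myh7b, a myosin heavy chain gene that hosts a microRNA, was at 3.99, 4.85 and 6.06 FPKM against 22.6, 18.2 and 26.0 FPKM (−1.96 ± 0.19), with an unstretched control mean of 23.5 FPKM. A pair of potassium channel genes was among them. Kcnj12, a subunit of the inward rectifier, was at 0.370, 0.775 and 0.971 FPKM against 5.40, 4.95 and 6.16 FPKM (−1.94 ± 0.14). Kcnj3, a subunit of the acetylcholine-gated channel, was at 0.548, 1.12 and 2.0 FPKM against 7.25, 6.08 and 10.4 FPKM (−2.03 ± 0.27). Phactr1, a phosphatase and actin regulator, differed by −1.98 ± 0.19 and Dgkb, a diacylglycerol kinase, by −2.03 ± 0.23. Rab3b, a small GTPase of secretion, was at 0.611 to 0.681 FPKM against 4.23 to 10.8 FPKM (−2.08 ± 0.29). Frem2, a basement membrane protein, differed by −1.97 ± 0.21, Smim5 by −1.89 ± 0.19 and the aldo-keto reductase gene Akr1b10 by −1.93 ± 0.28. Mt1a, a metallothionein, was at 1.45, 0.649 and 4.27 FPKM against 14.9, 13.7 and 10.3 FPKM (−2.32 ± 0.41).

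**Figure D2:**
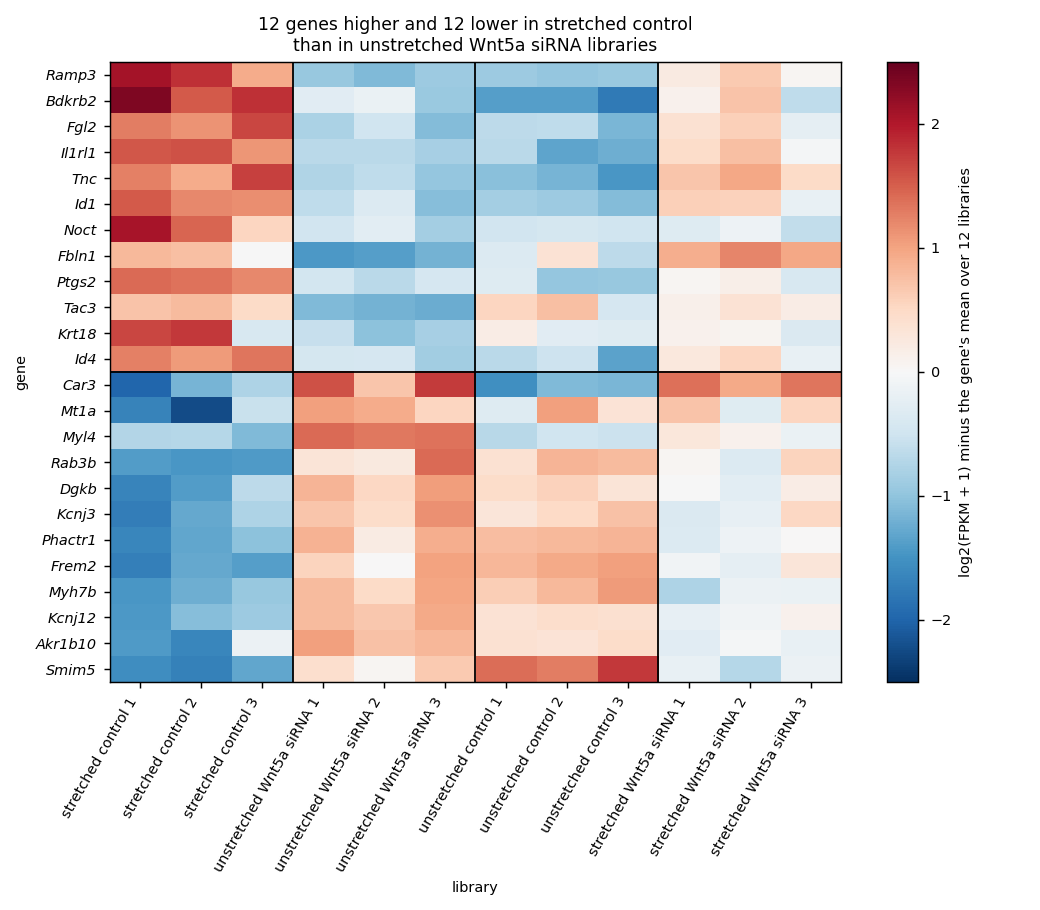
Heat map of the 12 genes with the largest rises and the 12 with the largest falls (rows) in all 12 libraries (columns), coloured by log2(FPKM + 1) minus the gene's mean over the libraries. The column of stretched control 3 is paler than those of replicates 1 and 2 for Ramp3, Noct and Krt18, and Car3 and Myl4 are high in unstretched Wnt5a siRNA and low in both control groups.

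Most genes of early signaling were higher, against 22.7% of all genes (8.59% with TPM scaling). Of 39 immediate early genes, which respond to stimuli without new protein synthesis, 32 were higher and 2 lower, with a median of 0.78 (33 higher and 2 lower without stretched control 3, 25 and 2 with TPM scaling). Fos, a subunit of the AP-1 factor, was at 19.3, 18.7 and 15.4 FPKM against 7.40, 9.19 and 8.27 FPKM (1.02 ± 0.12). The MAP kinase phosphatases Dusp1 (1.10 ± 0.13) and Dusp6 (1.30 ± 0.16), both feedback inhibitors, were higher. Klf2, a Krüppel-like factor, was lower, at 9.15 to 11.6 FPKM against 18.3 to 19.7 FPKM (−0.85 ± 0.09), and its unstretched control mean, 9.74 FPKM, was at the stretched control level.

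Growth factors and vasoactive peptides were higher in 17 of 35 cases and lower in 4, with a median of 0.36. The shares of all genes were 22.7% and 22.3%. Bdnf, a neurotrophin, was at 5.54, 3.77 and 4.06 FPKM against 1.57, 1.64 and 1.13 FPKM (1.15 ± 0.15). Inhba, the activin A subunit (0.95 ± 0.13), and Gdf6, a BMP ligand (1.27 ± 0.17), were also higher. Ntf3, another neurotrophin, was lower (1.92 to 4.15 against 8.14 to 11.8 FPKM, −1.5 ± 0.21). Among peptide and adrenergic receptors, 7 of 23 were higher and 8 lower. Adrb1, the main cardiac beta-adrenergic receptor, was at 6.49, 6.49 and 6.70 FPKM against 14.9, 13.2 and 15.6 FPKM (−1.04 ± 0.09). The TGF-beta and BMP response list had 11 of 26 genes higher and 3 lower. Without stretched control 2 the counts were 13 and 0, and without stretched control 3 they were 11 and 4. Its leading members were Id1, Id4 and Id3 (1.36 ± 0.17) and Bhlhe40, a helix-loop-helix repressor (0.93 ± 0.11).

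Of 19 chemokine and inflammation genes, 12 were higher and 1 lower, with a median of 0.93, against 22.7% and 22.3% of all genes. Ccl2, the monocyte chemoattractant, was at 130, 130 and 171 FPKM against 47.1, 45.1 and 53.5 FPKM (1.54 ± 0.12). Ccl7, a related chemokine, was higher by 1.31 ± 0.14. All 15 tested macrophage and leukocyte markers were higher too, with a median of 1.18, or 0.95 without stretched control 3. The summed FPKM of all 18 markers on that list, tested or not, was 361 to 604 in the stretched control libraries, highest in replicate 3, against 164 to 177 FPKM. The unstretched control libraries were at 209 to 270 FPKM. Lyz2, lysozyme, was at 155, 165 and 273 FPKM against 76.3, 76.3 and 83.1 FPKM (1.27 ± 0.17), and the lysosomal marker Cd68 was higher by 1.23 ± 0.11. The part of these cells in the chemokine result was not tested.

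Extracellular matrix genes were higher in 15 of 32 cases and lower in none, with a median of 0.27. The shares of all genes were 22.7% and 22.3%, or 8.59% and 41.0% with TPM scaling. Without stretched control 3 the count was 14 higher and 4 lower, and with TPM scaling 10 and 2. Thbs2, thrombospondin 2, was at 32.6, 33.8 and 33.0 FPKM against 17.0, 14.8 and 18.7 FPKM (0.94 ± 0.10). The cross-linking enzyme gene Loxl1 (0.86 ± 0.09) and the protease inhibitor gene Timp1 (1.06 ± 0.12) were also higher. The collagen gene Col1a1 was not among the called genes (−0.13 ± 0.14, adjusted p = 0.493). Of the 15 fibroblast markers, 6 were higher and none lower, and without stretched control 3 the count was 6 and 3, with the median going from 0.30 to 0.02. Dcn, decorin, was higher with either set of libraries, at 289, 329 and 371 FPKM against 99.7, 89.9 and 111 FPKM (1.71 ± 0.14). The part of fibroblasts in the matrix counts was not tested.

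**Figure D3:**
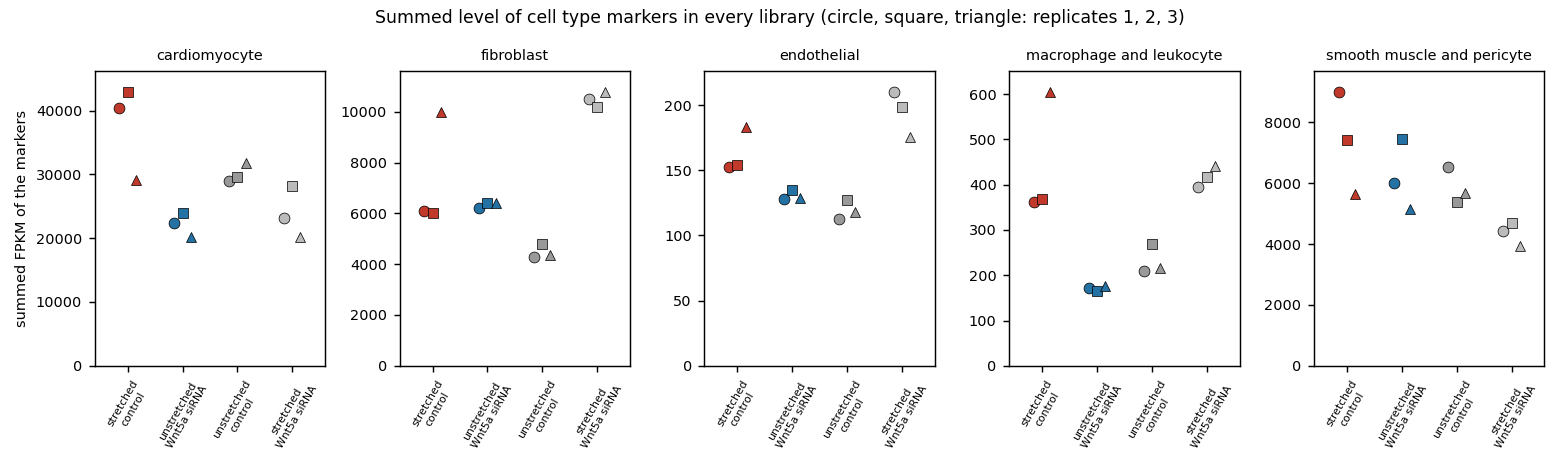
Summed FPKM of the markers of 5 cell types, whether or not they passed the filter, in each library (vertical axes from 0), with circle, square and triangle for replicates 1, 2 and 3. Macrophage and leukocyte markers were at 361 to 604 FPKM in stretched control (red) and 164 to 177 FPKM in unstretched Wnt5a siRNA (blue), and the stretched control triangle was highest for fibroblast and lowest for cardiomyocyte markers.

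Endothelial markers were higher in 3 of 11 tested cases (27.3%), near the 22.7% of all genes. The sums over all 13 on the list were 153 to 184 FPKM against 128 to 135 FPKM. The count of higher endothelial markers was 0 without unstretched Wnt5a siRNA 1, and 1 without unstretched Wnt5a siRNA 2 or stretched control 2. It was 2 without stretched control 1 or 3, and 1 with TPM scaling. The summed FPKM of 14 smooth muscle and pericyte markers was 5634 to 8982 against 5146 to 7468, with overlapping groups. Of these 14 markers, 1 was higher and 4 were lower (28.6%, against 22.3% of all genes). Among the lower was Myh11, smooth muscle myosin, at 10.2 to 15.3 FPKM against 32.4 to 46.8 FPKM (−1.59 ± 0.18). The 7 epicardial markers gave 2 of each direction and the 3 Schwann and neuronal markers 1 of each. The globin genes Hbb, Hba1 and Hba2 had adjusted p-values of 0.110, 0.384 and 0.382 and were not called. Adgre1, Cd163 and Cx3cr1 of the macrophage list, Vwf and Robo4 of the endothelial list, Sox10 of the Schwann list and Alas2 of the erythroid list did not pass the filter on low values.

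Genes of protein folding and synthesis were higher in most lists, but here the scaling mattered. The shares of all genes were 22.7% higher and 22.3% lower, or 8.59% and 41.0% with TPM scaling. In the unfolded protein response of the endoplasmic reticulum, 23 of 28 genes were higher and none lower, with a median of 0.50 (16 higher with TPM scaling and 15 with quantile normalization, none lower). Hspa5, whose promoter is shown above, was at 1196, 1050 and 1008 FPKM against 492, 476 and 470 FPKM (1.17 ± 0.09, adjusted p = 1.1e-05). Hsp90b1, its partner chaperone, was at 594 to 691 FPKM against 370 to 395 FPKM (0.74 ± 0.09). The transcription factor gene Atf4 was higher by 0.67 ± 0.06. The targets of ATF4 and amino acid genes did not follow as a list, with 11 of 31 higher and 8 lower, where leaving out 1 library of either group gave 5 to 13 lower and TPM scaling 5 higher and 12 lower. The amino acid transporter gene Slc38a2 was higher by 0.58 ± 0.07. Heat shock proteins were higher in 18 of 27 cases, which became 7 with TPM scaling, and included the chaperonin subunit Cct3 (0.61 ± 0.08) and Hspa8 (0.51 ± 0.07).

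Translation factors were higher in 23 of 31 cases (15 with TPM scaling) and proteasome subunits in 24 of 34 (5 with TPM scaling and 4 with quantile normalization). The share of all genes higher was 22.7%, or 8.59% with TPM scaling. Eif1a, an initiation factor, was at 97.5, 84.6 and 87.7 FPKM against 54.3, 49.1 and 47.5 FPKM (0.82 ± 0.09). The proteasome subunit Psmd12 was at 124 to 134 FPKM against 89.0 to 93.4 FPKM (0.49 ± 0.06). Ribosomal protein genes were higher in 24 of 38 cases with a median of 0.23, but in none with TPM scaling or quantile normalization, where their medians were −0.00 and −0.06. Leaving out unstretched Wnt5a siRNA 3 left 11 higher, unstretched Wnt5a siRNA 1 left 12, stretched control 1 left 15 and stretched control 3 left 16. No direction is given for them, since it changed with the scaling. Some abundant genes stayed close to equal. Eef1a1, the main elongation factor, was at 4585, 4533 and 5785 FPKM against 4797, 4601 and 4833 FPKM, with a 95% interval of −0.18 to 0.29. Its difference was −0.60 with quantile normalization, and that of Eef2, another elongation factor, was −0.24 there and −0.19 with TPM scaling. Of 924 list members tested, 80 had an interval within −0.32 to 0.32 with and without stretched control 3, among them Eef1a1, Rps18, Rps2, Bgn, Rps4x and Eef2.

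The contractile apparatus was mixed. The shares of all genes were 22.7% higher and 22.3% lower. They were 27.9% and 26.2% without stretched control 3 and 8.59% and 41.0% with TPM scaling. Of 29 sarcomere genes, 7 were higher and 5 lower (median 0.06), which became 13 and 5 without stretched control 3, 6 and 8 without stretched control 2, 6 and 10 with TPM scaling and 4 and 9 with quantile normalization. Actc1, cardiac actin, was at 18340, 18630 and 13570 FPKM against 6586, 8365 and 4717 FPKM (1.39 ± 0.22, adjusted p = 0.0005). The small heat shock protein gene Cryab, a chaperone of desmin, was higher by 1.05 ± 0.17 and the Z-disc gene Myoz2 by 0.83 ± 0.13. Des, desmin itself, was at 1578, 1088 and 1203 FPKM against 548, 666 and 500 FPKM (1.17 ± 0.16). In the intercalated disc and cytoskeleton list, 15 of 31 genes were higher and 4 lower. The counts became 19 and 5 without stretched control 3 and 9 and 9 with TPM scaling. Gja1, the gap junction protein connexin 43, was at 348, 386 and 259 FPKM against 186, 173 and 203 FPKM (0.80 ± 0.12). The unstretched control mean of Gja1 was 510 FPKM, above both groups.

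Most electrical and calcium genes that were called were lower, while 22.3% of all genes were lower (41.0% with TPM scaling). Of 39 tested, 20 were lower and 1 higher, with a median of −0.45 (18 and 5 without stretched control 3, 24 and 0 with TPM scaling). Kcnh2, the channel of the rapid delayed rectifier current, was at 12.8, 17.3 and 17.6 FPKM against 43.3, 40.0 and 46.7 FPKM (−1.40 ± 0.11). Cacna1g, a T-type calcium channel, was at 25.5 to 36.2 FPKM against 83.6 to 98.9 FPKM (−1.51 ± 0.12). Cacna1c, the L-type calcium channel, was at 14.4 to 17.6 FPKM against 29.5 to 35.6 FPKM (−0.99 ± 0.09). In the unstretched control it was at 55.1 FPKM, above both groups. Atp2a2, the calcium pump SERCA2, was at 648, 867 and 549 FPKM against 909, 873 and 999 FPKM (−0.45 ± 0.14, adjusted p = 0.0201). It was not called without stretched control 3 (−0.30), stretched control 1 (−0.42) or unstretched Wnt5a siRNA 3 (−0.40), with adjusted p-values from 0.00105 to 0.0778 over all alternatives.

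Among cardiac transcription factors, 10 of 28 were lower and 2 higher, with a median of −0.11, against 22.3% and 22.7% of all genes. Without stretched control 3 the counts were 12 and 7, against 26.2% and 27.9%. Irx4, an Iroquois factor of the ventricle, was at 8.45, 9.67 and 9.96 FPKM against 36.9, 26.5 and 47.1 FPKM (−1.83 ± 0.16). Prox1 (−1.11 ± 0.10), a homeobox factor, and Tbx5 (−0.87 ± 0.09), a T-box factor, were also lower. In the clock list, 5 of 16 were higher and 2 lower, with 7 and 3 without stretched control 3 and 3 and 5 with TPM scaling. With TPM scaling 8.59% of all genes were higher and 41.0% lower. The core activator Arntl was higher by 0.86 ± 0.09 and Per3 lower by a difference of −1.0 ± 0.14.

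Energy metabolism did not move as a block. The shares of all genes were 22.7% higher and 22.3% lower. They were 27.9% and 26.2% without stretched control 3 and 8.59% and 41.0% with TPM scaling. Nuclear genes of oxidative phosphorylation were higher in 16 of 45 cases and lower in none (median 0.21), and higher in 35 and lower in 1 without stretched control 3. With TPM scaling the count was 3 higher and 5 lower and with quantile normalization 2 and 6. Ndufa4, a subunit of the respiratory chain, had the largest log2 difference of the list in this fit, with levels of 510, 572 and 473 FPKM against 184, 187 and 186 FPKM (1.47 ± 0.08, adjusted p = 8.5e-07). Its unstretched control mean was 588 FPKM. Fatty acid genes were lower in 11 of 38 cases (28.9%, near the share of all genes) and higher in 3 (7.89%). Without stretched control 3, 7 were higher, and with TPM scaling 18 were lower and 2 higher. Hadh, an enzyme of beta-oxidation, was at 7.95, 11.1 and 14.2 FPKM against 25.7, 24.4 and 36.7 FPKM (−1.32 ± 0.20), and both were below its unstretched control mean of 59.2 FPKM. The lipid carrier gene Fabp4 was higher by 1.28 ± 0.12.

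In the TCA cycle and branched-chain oxidation list, 8 of 34 were higher and 11 lower (5 and 8 without stretched control 1, 4 and 13 without stretched control 2, 11 and 11 without stretched control 3, and 1 and 19 with TPM scaling). In glycolysis, 8 of 27 were higher and 6 lower (4 and 6 without stretched control 1, 4 and 13 with TPM scaling). Beside these lists and those that follow, 22.7% of all genes were higher and 22.3% lower. The shares were 27.9% and 26.2% without stretched control 3 and 8.59% and 41.0% with TPM scaling. The glycolysis list, with 29.6% higher and 22.2% lower, was near the main shares. Pfkm, the muscle phosphofructokinase, was at 26.8, 40.0 and 33.7 FPKM against 87.3, 77.1 and 111 FPKM (−1.43 ± 0.16). Ldha, lactate dehydrogenase A, was at 931 to 981 FPKM against 692 to 721 FPKM (0.44 ± 0.06), but at 0.11 and not called with quantile normalization. Energy transfer genes were lower in 5 of 17 cases (10 with TPM scaling) and higher in 2, with the nucleotide translocator Slc25a5 higher by 0.63 ± 0.07 and the deaminase gene Ampd3 lower (−1.44 ± 0.19). Cholesterol and fatty acid synthesis genes had 2 of 28 higher and 4 lower, with 10 lower without stretched control 3 and 2 lower without stretched control 1 or 2. Acacb, the acetyl-CoA carboxylase of the mitochondrial surface, was lower (−1.22 ± 0.17). NRF2 targets and antioxidant genes were higher in 14 of 31 cases and lower in 5. The counts turned to 18 and 6 without stretched control 3 and to 6 and 9 with TPM scaling. Gclc, which makes the precursor of glutathione, was at 50.1, 56.7 and 31.0 FPKM against 17.9, 16.7 and 17.2 FPKM (1.32 ± 0.17).

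Cell cycle genes were lower in 21 of 42 cases and higher in 3, with a median of −0.40. They were lower in 32 cases without stretched control 3 and 39 with TPM scaling. The shares of all genes lower were 22.3%, 26.2% and 41.0% in that order. The 3 higher members were Ccnd1, which acts at the start of the cycle, and the inhibitors Cdkn2b (1.38 ± 0.14) and Cdkn1a (1.20 ± 0.23). Rrm2 (30.0 to 35.0 against 45.1 to 52.2 FPKM, −0.57 ± 0.08) and Tyms (−0.70 ± 0.12), enzymes that supply nucleotides for DNA synthesis, were lower. The unstretched control mean of Rrm2 was 30.0 FPKM, at the stretched control level. Interferon response genes were lower in 20 of 33 cases and higher in 4, with a median of −0.60. The RNA sensor gene Ddx58 was at 3.97, 4.38 and 4.85 FPKM against 9.10, 8.16 and 9.87 FPKM (−0.90 ± 0.11), and Parp9 was lower by a difference of −0.75 ± 0.09. The membrane proteins Ifitm1 (1.27 ± 0.17) and Ifitm3 (0.68 ± 0.09) went the other way.

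**Figure D4:**
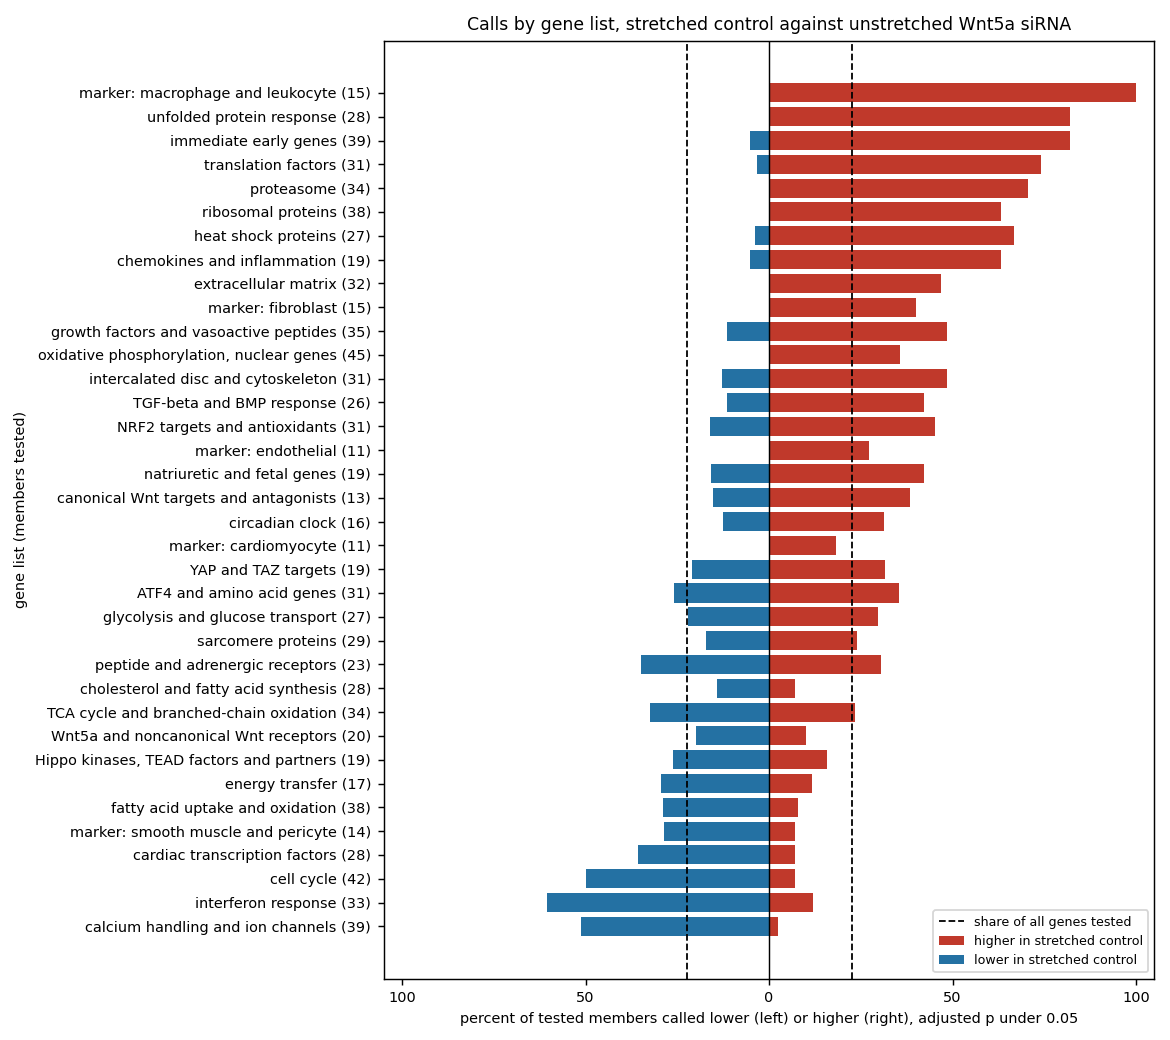
Percent of the tested members of each gene list (the epicardial, Schwann and erythroid markers, with few members, are not drawn) that were called lower (bars to the left) or higher (bars to the right) in stretched control than in unstretched Wnt5a siRNA libraries, with the number tested in brackets and dashed lines at the 22.3% lower and 22.7% higher of all genes. Bars of ribosomal, proteasome and oxidative phosphorylation genes shorten or turn under other scalings, as given in the text.

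The opposite pairing of the factors, stretched Wnt5a siRNA minus unstretched control, uses none of these 6 libraries. Across 10518 genes the 2 sets of differences correlated at r = 0.32, with SDs of 0.453 and 0.482, as a description across genes, which are not independent replicates. Of 4740 genes called here and 4854 called in the opposite pairing, 2009 were called in both with the same direction (42.4% and 41.4% of them). Another 438 were called with opposite directions (9.24% and 9.02%). The difference between the 2 pairings, which equals the sum of the control minus Wnt5a siRNA differences with and without stretch, was called for 3192 genes (30.3%), 1614 higher and 1578 lower. Without stretched control 3 it was called for 4791 (45.7%).

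Some large differences were alike in both pairings. Tnc was higher by 2.09 here and by 1.92 in the opposite pairing, Ccnd1 by 1.37 and 1.38, and Adrb1 and Hadh were lower by similar amounts (−1.04 and −1.03, −1.32 and −1.25). For Tnc the difference between the pairings was 0.16 (adjusted p = 0.660) and for Ccnd1 −0.01 (adjusted p = 0.963). Others ran in opposite directions. Acta1 was at 91.5 to 239 FPKM in the stretched Wnt5a siRNA libraries and at 643 to 704 FPKM in the unstretched control, a difference of −2.35 there against 1.92 here (difference between the pairings 4.26, adjusted p = 0.0024). Ndufa4 (1.47 against −1.18) and Gja1 (0.80 against −1.58) showed the same pattern. In the other direction, Car3 (−2.65 against 2.48), Myl4 (−2.22 against 0.65) and Casq1, the skeletal calsequestrin (−1.84 against 2.92), were low here and high in the opposite pairing. H19, an imprinted noncoding RNA, was at 22.1 to 30.8 FPKM against 28.9 to 48.4 FPKM here, and at 98.3 to 132 FPKM against 12.5 to 19.3 FPKM in the opposite pairing.

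Gene lists also differed between the pairings. The difference between the pairings was higher for 40 of 45 oxidative phosphorylation genes and lower for none, higher for 23 of 38 fatty acid genes and lower for 1, and higher for 18 of 29 sarcomere genes and lower for 2. It was lower for 35 of 38 ribosomal protein genes, 33 of 42 cell cycle genes and 21 of 31 ATF4 and amino acid genes, and higher for 0, 1 and 2 of them. Over all genes it was called higher for 15.3% and lower for 15.0%. With TPM scaling, where 9.59% of all genes were higher and 19.5% lower, the counts were 37 higher, 18 higher, 18 higher, 38 lower, 35 lower and 25 lower in that order. Immediate early genes were higher in 22 of 39 cases, and unfolded protein response genes in 4 of 28 with 5 lower.

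**Figure D5:**
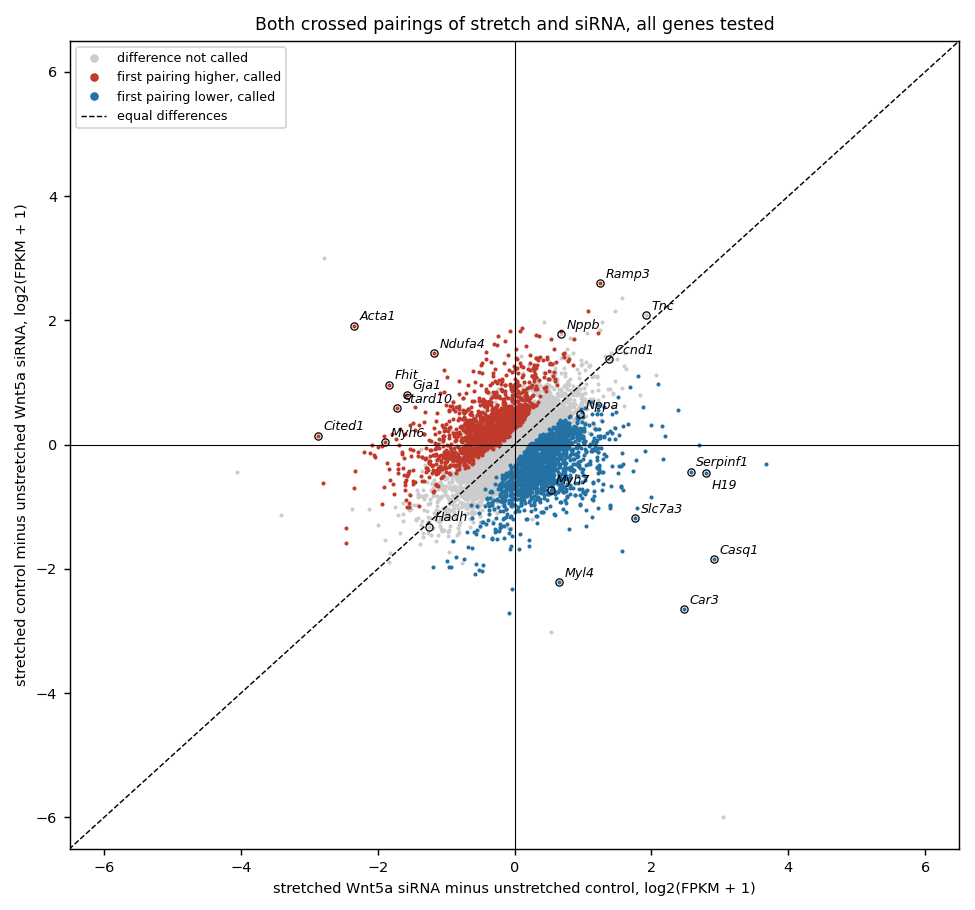
Log2 difference of each tested gene in the opposite pairing (horizontal) against that of stretched control minus unstretched Wnt5a siRNA (vertical), with the line of equal differences dashed and genes whose 2 differences were called different in red (vertical pairing higher) or blue (lower). Tnc, Ccnd1 and Hadh lay near the line, whereas Acta1, Ndufa4, Car3 and Casq1 lay in the quadrants where the pairings had opposite signs.

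Where stretched control 3 lay between the groups was measured on genes that were at least 2-fold apart when it was left out. Of 223 such genes higher in stretched control replicates 1 and 2, 76 (34.1%) were nearer to the unstretched Wnt5a siRNA mean in replicate 3, and the median position was 0.64 of the way from that mean to the mean of replicates 1 and 2. Of 333 lower genes, 114 (34.2%) were nearer, with a median position of 0.67. The same measure gave 4.91% and 2.40% for stretched control 1 and 6.25% and 12.4% for stretched control 2. It places a library only on the line between the 2 groups compared and does not show how near it was to the other 2. Genes called without stretched control 3 and not with it, 128 list members, included Fbn1, fibrillin 1 (91.6, 82.7 and 233 FPKM against 159, 158 and 162 FPKM), and Phgdh, the first enzyme of serine synthesis (31.8, 24.6 and 66.2 FPKM against 56.6, 57.7 and 58.7 FPKM). In the stretched Wnt5a siRNA libraries, Fbn1 was at 199 to 211 FPKM and Phgdh at 60.9 to 74.9 FPKM. Srf, the factor that binds the CArG box, was at 63.8, 64.7 and 37.3 FPKM against 40.1, 43.0 and 37.2 FPKM, and its difference was 0.41 with the library (adjusted p = 0.0593) and 0.67 without it, where it was called. Its adjusted p ran from 8.3e-05 to 0.336 over all alternatives. In the other direction 21 list members were called only with it, among them Crim1, Eng and Eif3f.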

How the data were processed

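Per the labels' protocols, miRNeasy was used to extract RNA and the TruSeq Stranded mRNA kit to prepare it for sequencing. The authors deposited 1 table of FPKM per library, 12 in all. TopHat2 2.1.1, Bowtie2, Cuffdiff 2.2.1 and the build rn6 are named in the submitters' processing notes. The sources used here do not give the annotation, the strand setting or the normalization between libraries, so genes that overlap, are antisense or have near-identical copies are uncertain. Of 1523 low genes, 96.0% lay in ratios of whole numbers (tolerance 3 percent), but read counts were not recovered and depth is unknown. No pair of libraries held identical values. Of 17312 symbols, 14809 were current names in RefSeq's GRCr8 table, 2117 were synonyms and 386 were unmatched. That table was used for names only, and the promoters are from RefSeq for the same assembly, which is not the authors' build.

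Libraries were grouped by their labels. limma 3.58.1 (R 4.3.3, eBayes with trend) was fitted to log2(FPKM + 1) of genes that reached 1 FPKM in 3 or more libraries, as 4 group means over all 12 libraries with 8 residual degrees of freedom. Tests were 2-sided with Benjamini-Hochberg adjustment over all genes tested and a threshold of 0.05. The script was tested on simulated data. Single readouts also had an exact permutation test. Tables and figures were made with Python 3.11.15, pandas 2.3.3, SciPy 1.17.1 and matplotlib 3.10.9.

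The groups compared and the 39 gene lists (1105 entries, 1057 of them in the files) were chosen with earlier results of these data known. The genes named are 10 readouts, up to 12 rises and 12 falls (called with and without stretched control 3, a higher-group mean no less than 5 FPKM, no overlap of libraries), up to 4 called members of each list with the smallest adjusted p, up to 6 genes a direction with the largest difference between the pairings, list members close to equal, and list members whose call depended on stretched control 3. Members that were named beside these for their role (Col1a1, Cdkn1a, the globin genes and markers under the filter) were chosen after their values were seen. A gene picked by the rule is not reported here. Alternatives changed the pseudocount, the filter, the scaling, the replicate block, the variance trend, the libraries fitted and the fold needed for a call, and left out each library.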

Additional observations from a re-analysis of the deposited data

Results flagged for a closer look

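Flags were drawn only from the readouts and the genes picked for the largest difference between the pairings, not from all named genes. For 17 of those, stretched control minus unstretched Wnt5a siRNA itself differed from the opposite pairing, by limma at an adjusted p under 0.05. The opposite pairing is stretched Wnt5a siRNA minus unstretched control. Values are the first log2 difference minus the second. Among the readouts of load and of YAP, it was 4.26 for Acta1 (adjusted p = 0.0024), 1.93 for Myh6 (0.0042), 1.28 for Ankrd1 (0.0099), 0.90 for Ctgf (0.0468) and 0.75 for Cyr61 (0.0414). It was −1.25 for Myh7 (adjusted p = 0.0011) and 1.04 for Wnt5a, the target of the siRNA (0.0032).

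Among genes chosen for the largest such difference, it was 3.01 for the transcriptional co-regulator gene Cited1, 2.80 for Fhit, 2.65 for the respiratory chain gene Ndufa4, 2.38 for the gap junction gene Gja1 and 2.30 for the lipid transfer gene Stard10. It was −5.13 for Car3, −4.77 for the calsequestrin gene Casq1, −3.26 for H19, −3.01 for Serpinf1, which encodes pigment epithelium-derived factor, and −2.94 for the amino acid transporter gene Slc7a3. These 10 and Acta1 were picked by that size, so their values are a description.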

How the results depend on the processing

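Of 4244 values of the 185 named genes under 23 alternatives, 4097 kept their call or lack of one, 110 lost the call, 29 gained it and 8 turned with a call on either side, and 141 genes had the same call under every alternative. Of the values called on neither side, 27 of 11 genes had the other sign, among them those of Myh6, Nppa, Cyr61 and Cited1. The 8 that turned with a call were Yap1 (−0.23 with TPM scaling), Eef2 (−0.19 with TPM scaling, −0.24 with quantile normalization), Rpl28 (−0.03 and −0.04) and, with quantile normalization, Eef1a1 (−0.60), Rpl14 (−0.07) and Rplp0 (−0.00). The cause was not tested. TPM scaling moved 42 list counts by over 1.5 times and quantile normalization 30.

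Of 4740 genes called, 1633 were at least 1.5-fold apart (626 higher, 1007 lower), and TPM scaling gave 939 higher and 4478 lower. Of 3192 genes called between the pairings, 1887 were at least 1.5-fold apart (851 higher, 1036 lower), and TPM scaling gave 1048 higher and 2130 lower. Leaving out 1 library gave 3670 to 5675 called genes (1855 to 2925 higher, 1815 to 2750 lower) and 2411 to 4791 between the pairings (1197 to 2452 higher, 1214 to 2339 lower), with each highest value without stretched control 3. Where this left 2 libraries in a group, they were assumed to vary like the other groups.

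Replicate numbers did not pair the libraries of the 2 groups compared. Deviations of same-numbered libraries of these groups correlated at 0.046, 0.017 and 0.058. Only replicate 3 of stretched control correlated best with its own number. Pairing by number with or between the other 2 groups was not checked. A replicate block gave 4803 called genes and 3268 between the pairings. The block gave Srf a call (adjusted p = 0.0261) and took that of Cdh5 (adjusted p = 0.0625, from 0.0187 to 0.179 over all alternatives). With only the 6 libraries compared, 3470 genes were called (1763 higher, 1707 lower), and adding the block to that gave 2923 (1442 higher, 1481 lower) with 2 residual degrees of freedom. The latter fit, the 6 libraries without stretched control 3 (5176 called) and leaving out libraries of the other 2 groups were chosen after seeing the data. Depth is unknown, so the precision of low values could not be set from counts.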
